A study of Mus musculus with 8 samples.

Results

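The exon junction complex is a set of proteins that the splicing machinery leaves on an mRNA just upstream of each exon-exon junction. Its genes were followed here in germ cells with and without TDRD6. The 7 genes named were Eif4a3, Rbm8a, Magoh and Casc3, which encode the core, and Rnps1, Acin1 and Pnn, which encode peripheral proteins. They were taken by gene name from the 3 deposited tables of transcripts, with each transcript counted once. This gave 11 transcripts of 6 genes, out of 19077 distinct transcripts and 12200 gene names. Casc3 was not analysed here.

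The mice were of the C57BL/6 background and 26 days old. There were 4 Tdrd6-/- and 4 Tdrd6+/- animals, 8 samples in all, and both genotypes carry the targeted allele with hCD4, a human surface protein, placed in frame at the Tdrd6 start codon. Testis cells that show hCD4 were collected on magnetic beads, so that the control is a heterozygote and not a wild type. As the study describes them, these preparations were enriched for round spermatids, the haploid cells after meiosis, and also held spermatocytes. The study examined their composition by flow cytometry, which was not analysed here. Each table gives FPKM, a read abundance scaled to transcript length and to the size of the library, with the animals of a genotype combined into 1 value, so no value below has a replicate spread and none was tested. A difference between genotypes is therefore called "higher" or "lower" of the pooled values only, and a transcript is counted as past the threshold at 1.5-fold or more either way.

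In the core, EIF4A3 is the RNA helicase that clamps the RNA, and the dimer of MAGOH and RBM8A (also called Y14) locks it there. CASC3 joins them as the remaining core protein. RNPS1 forms the ASAP complex with acinus, the product of Acin1, and SAP18, or the PSAP complex with pinin, the product of Pnn, and SAP18, and both bind to the core and act in splicing. During the pioneer round of translation ribosomes strip the complexes from the coding sequence. A complex that remains downstream of a stop codon recruits UPF3 and UPF2, which activate UPF1 in nonsense-mediated mRNA decay (NMD). The study asked how mRNA decay depends on TDRD6, a Tudor domain protein of the chromatoid body, a cytoplasmic RNA granule of spermatids.

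The junctions on which these mRNAs themselves can carry the complex, and the splice choices that tell the listed isoforms apart, are shown as stretches of 30 bases of the transcript. All are read 5′ to 3′ on the strand of the gene in mm9. For the 3 core genes the last junction is shown, with 15 bases on each side and the start of the last exon in capitals. Eif4a3 lies on the minus strand (junction between chr11:119149859-119149988), Rbm8a on the plus strand (chr3:96435477-96435626) and Magoh on the plus strand (chr4:107557590-107559796).
Eif4a3-001: agatgcccatgaatgTGGCTGACCTCATCT
Rbm8a-201: aaagggcaagaggagAGGAGGCCGAAGACG
Magoh-001: tgtcaaccagtccaaGGATCCGGAAGGCTT

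For Rnps1, on the plus strand of chromosome 17, the listed isoforms differ in their first coding bases, shown with the start codon in capitals. Rnps1-202 and Rnps1-204 share a start inside an exon (chr17:24555093-24555122). Rnps1-203 leaves out that exon of 181 bases and begins coding at a start codon that is split by the junction (between chr17:24551678-24555429), which makes its protein 23 residues shorter.
Rnps1-202: ATGgatttatcaggagtgaaaaagaagagc
Rnps1-203: ATGgctccttctcctaccaaacgcaaggac

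For Acin1, on the minus strand of chromosome 14, 2 splice choices are shown, with 15 bases on each side of the splice site and the bases after it in capitals. At the first an upstream exon with the same end joins an exon of which the Acin1-008 form begins 36 bases, or 12 residues, earlier. Its junctions lie between chr14:55265390-55265554 in Acin1-002 and between chr14:55265426-55265554 in Acin1-008 and Acin1-010.
Acin1-002: actgagtcactcaagGAGGCTGTTGTGGAT
Acin1-008: actgagtcactcaagAGCCTCATCCCCGAC

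At the other choice, Acin1-023 reads on past the splice site into 436 bases that no other annotated Acin1 transcript holds, where the other 3 listed forms are spliced. The stretch shown lies at chr14:55262546-55262575 in Acin1-023 and between chr14:55261871-55262575 in Acin1-002.
Acin1-023: ctgactgagagccaaGTGAGTACTCTCCCA
Acin1-002: ctgactgagagccaaATTGTTCAGAAGGAG

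**Figure D1:**
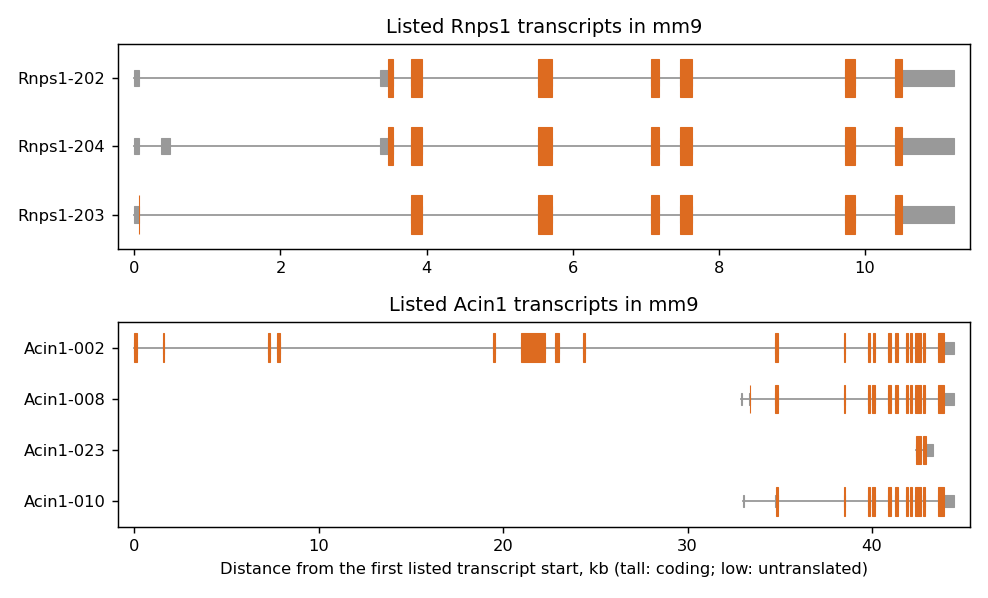
Exon maps of the 3 listed Rnps1 transcripts and the 4 listed Acin1 transcripts from the GENCODE M1 annotation on mm9, with the distance from the first listed transcript start in kb on the x axis, coding sequence as tall boxes and untranslated sequence as low boxes. The Rnps1 transcripts differ only near their 5′ end, whereas Acin1-008 and Acin1-010 begin within the gene and Acin1-023 covers only 2 exons near its 3′ end.

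The targeted gene was low in the mutant. Tdrd6-202 had 40.6 FPKM in Tdrd6+/- and 1.29 FPKM in Tdrd6-/-, Tdrd6-001 had 16.0 and 0.174 FPKM, and Tdrd6-201 had 0.54 FPKM and was listed at 0. The spermatid markers also differed. The 5 late spermatid markers (such as Prm1 and Tnp1, which encode proteins that pack sperm DNA) summed to 20400 FPKM in Tdrd6+/- and 5380 FPKM in Tdrd6-/-, all 5 past 1.5-fold. The 7 round spermatid markers with values were all lower in Tdrd6-/-, 4 of them past 1.5-fold. They summed to 2030 FPKM in Tdrd6+/- (91.2 to 414 a gene) and 1390 FPKM in Tdrd6-/- (58.1 to 309 a gene). The 6 markers of pachytene spermatocytes were all higher in Tdrd6-/-, none of them past 1.5-fold, with a median log2 ratio of 0.33. They summed to 910 and 1010 FPKM, of which Hspa2 alone had 732 and 781 FPKM. The 4 spermatogonia markers summed to 3.93 and 4.3 FPKM, with Stra8 higher (0.24 and 0.487 FPKM) and Kit lower (0.541 and 0.262 FPKM) past 1.5-fold. The 3 Sertoli cell markers summed to 6.84 and 7.81 FPKM, with Wt1 higher past 1.5-fold (2.3 and 3.52 FPKM). The 5 Leydig cell markers summed to 27.8 and 26.6 FPKM, mostly from Insl3 (19.6 and 16.7 FPKM), and the blood marker Cd52 had 0.901 and 1.06 FPKM. No marker with values was at 0. The part of these marker differences in the values below was not tested, and in RNA pooled from many cells a smaller number of cells that express a gene cannot be told apart from less of its RNA in each cell.

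The core genes were expressed at unequal levels that differed little between genotypes. Eif4a3-001 (ENSMUST00000026667, 12 exons at chr11:119149677-119161403 in mm9) was the most abundant, with 54.7 FPKM in Tdrd6+/- and 44.7 FPKM in Tdrd6-/-. These levels stand at the percentiles 89.7 and 88.7 of all listed transcripts. Magoh-001 (ENSMUST00000030348, 5 exons at chr4:107552360-107560029) followed with 37.5 and 29.9 FPKM. Rbm8a-201 (ENSMUST00000048915, 6 exons at chr3:96433851-96437702), which encodes the partner of MAGOH in an equimolar dimer, had 8.87 and 9.5 FPKM. FPKM is scaled to transcript length, but levels are compared between genes here only over the listed transcripts. These are 1 of 6 annotated for Eif4a3, 1 of 2 for Magoh and 1 of 1 for Rbm8a. The part of a transcript that occurs again elsewhere in the genome, given below, also differs between the genes. The Magoh level was 4.22 times that of Rbm8a in Tdrd6+/- and 3.14 times in Tdrd6-/-, and the Eif4a3 level was 1.46 and 1.5 times that of Magoh.

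Between genotypes, Eif4a3-001 was 1.22-fold lower in Tdrd6-/- (log2 ratio of Tdrd6-/- over Tdrd6+/- -0.29) and Magoh-001 was lower by a similar factor (-0.33). Rbm8a-201 was 1.07-fold higher (0.10). None of the 3 core transcripts was past 1.5-fold. Of all 19034 transcripts with a value above 0 in both genotypes, 22.7% were (11.6% higher and 11.1% lower). The share was 15.4% at a mean FPKM of at least 2, as all 3 core transcripts have. With 3 transcripts, none past the threshold is near the background. Ratios as large as those of the core were common among the transcripts of like level, that is, with a mean FPKM within 2-fold. Of 2403 transcripts with a level like that of Eif4a3-001, 41.6% had a log2 ratio at least as far from 0, and the share was 34.9% of 2897 for Magoh-001 and 81.0% of 4629 for Rbm8a-201. Eif4a3 and Magoh, the helicase and a subunit of the dimer, thus had similar ratios, and the 2 subunits of the dimer had ratios of opposite sign.

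**Figure D2:**
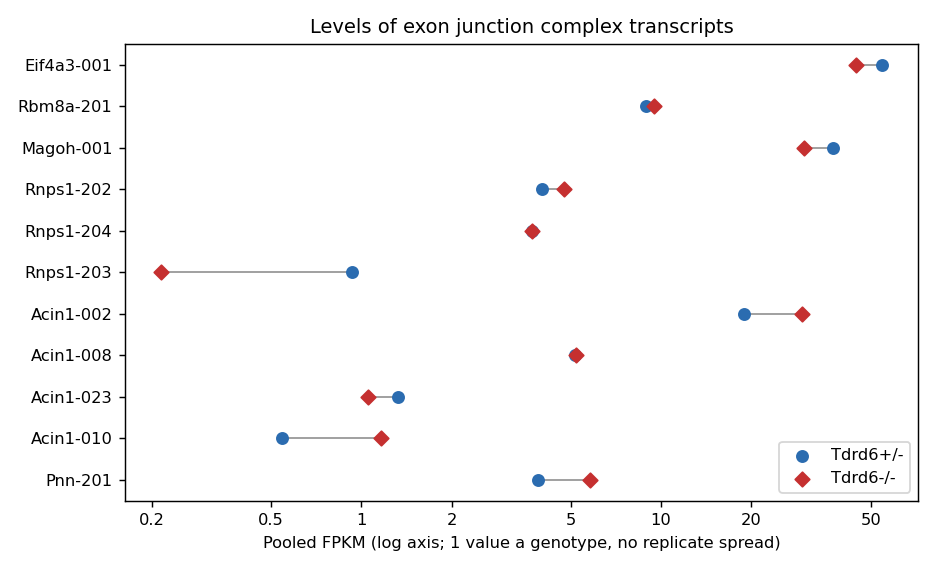
Pooled FPKM of the 11 exon junction complex transcripts on a log axis, with blue circles for Tdrd6+/- and red diamonds for Tdrd6-/-, 1 value a genotype and therefore no error bars. The symbols of most transcripts lie close together, and the widest gaps are those of Rnps1-203 (0.934 and 0.215 FPKM) and Acin1-010 (0.542 and 1.16 FPKM), both of low level.

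Acin1 was the peripheral gene of the highest level. Its 4 listed transcripts summed to 25.9 FPKM in Tdrd6+/- and 37.0 FPKM in Tdrd6-/-, 1.43-fold higher (log2 ratio 0.52). In Tdrd6+/- this sum was below the level of Magoh, and in Tdrd6-/- it was above it. The order of the gene levels was otherwise the same in both genotypes, namely Eif4a3, Magoh and Acin1, then Rbm8a, Rnps1 and Pnn. With no spread between animals, it is not known which neighbours in this order differ.

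Most of the difference in listed Acin1 FPKM was assigned to the transcript that begins farthest upstream. Acin1-002 (ENSMUST00000147714, chr14:55260999-55305453), with 19 exons, among them upstream exons that the shorter forms lack, is annotated without a complete start. It had 18.9 FPKM in Tdrd6+/- and 29.6 FPKM in Tdrd6-/- (1.57-fold higher, log2 ratio 0.65). It was past 1.5-fold, and 8.48% of 3397 transcripts of like level were as far from 0. Acin1-008, the form that begins within the gene and uses the earlier splice site shown above, had 5.15 and 5.22 FPKM (log2 ratio 0.02). The share of Acin1-002 in the listed Acin1 FPKM was 72.9% in Tdrd6+/- and 79.9% in Tdrd6-/-, and that of Acin1-008 was 19.9% and 14.1%. The remaining forms were of low level. Acin1-010 had 0.542 and 1.16 FPKM (2.14-fold higher, log2 ratio 1.10), and Acin1-023, which reads past the splice site, had 1.33 and 1.05 FPKM (-0.34). Among the 4 listed forms Acin1-002 has 2133 bases and 9 junctions of its own, while Acin1-010 has 82 bases and 1 junction. The GENCODE M1 annotation holds 26 Acin1 transcripts, 12 of them protein-coding. Against these, Acin1-002 and Acin1-010 have no base or junction of their own. The values of both therefore rest on how Cuffdiff divided reads that the forms share.

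Pnn, the PSAP member, had 3.88 FPKM in Tdrd6+/- and 5.77 FPKM in Tdrd6-/- for its single listed transcript, Pnn-201 (ENSMUST00000021381, 9 exons at chr12:60167906-60175004). At 1.49-fold (log2 ratio 0.58) it stood just under the threshold, while Acin1-002 at 1.57-fold stood just above it. Of 5027 transcripts of like level, 19.4% had a ratio as far from 0. Since Acin1 and Pnn were both higher in Tdrd6-/-, the level of Acin1 over that of Pnn was close in the 2 genotypes (6.68 and 6.41). Relative to Rnps1, which encodes the protein that acinus and pinin share as a partner, the listed Acin1 FPKM went from 2.99 times in Tdrd6+/- to 4.26 times in Tdrd6-/-.

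Summed over its listed transcripts, Rnps1 had nearly the same pooled level in both genotypes, while the shares of these isoforms differed. The 3 listed transcripts, of 4 annotated, summed to 8.66 FPKM in Tdrd6+/- and 8.68 FPKM in Tdrd6-/- (log2 ratio 0.00). Rnps1-202 had 4.02 and 4.76 FPKM (1.19-fold higher, 0.25) and Rnps1-204 had 3.71 FPKM in each genotype. Rnps1-203 (ENSMUST00000115371, 7 exons in the gene at chr17:24551620-24562840), with the alternative start codon, had 0.934 and 0.215 FPKM, 4.34-fold lower in Tdrd6-/- (log2 ratio -2.12). Its share of the listed Rnps1 FPKM was 10.8% in Tdrd6+/- and 2.48% in Tdrd6-/-, and the share of Rnps1-202 was 46.4% and 54.8%. Ratios as far from 0 were found for 6.08% of 4657 transcripts of like level.

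Adding 0.1 or 1 to each FPKM moves the log2 ratio of Rnps1-203 to -1.71 or -0.67, a shift that follows by construction from its low values. Among the listed forms neither Rnps1-202 nor Rnps1-203 has a base of its own, and each has 1 junction of its own. Rnps1-203 is told apart only by the junction at which its start codon is split. In addition, 71.9% of the stretches of 76 bases along it occur again exactly elsewhere in mm9, and 62.0% of those of Rnps1-202 and 57.9% of those of Rnps1-204, most of them on chromosome 6, where RefSeq names the pseudogene Rnps1-ps. Reads from such stretches could be assigned to either copy. The share was 12.7% for Eif4a3-001, with copies on chromosome 6, and 3.16% for Rbm8a-201, with copies on chromosome 1, and 0 for Magoh-001, Pnn-201 and the 4 Acin1 transcripts. The other genes with a transcript whose pooled values lay nearest to those of Rnps1-203 in mean level and in ratio were Mfn2 (0.912 and 0.211 FPKM), Cdk19 (0.922 and 0.219 FPKM) and Snx21 (0.993 and 0.221 FPKM). This likeness was taken over 2 pooled values only.

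In all, 2 of the 11 transcripts were higher in Tdrd6-/- past 1.5-fold (Acin1-002 and Acin1-010) and 1 was lower (Rnps1-203). Beside the shares of 11.6% and 11.1% over all transcripts, and 22.7% in either direction, 3 of 11 is near the background. Acin1-010 and Rnps1-203 had a mean FPKM under 1, a level at which 40.7% of all transcripts were past 1.5-fold, against 15.4% at a mean FPKM of at least 2. The median log2 ratio of the 11 transcripts was 0.02 and that of all transcripts 0.01. When the 2 values were scaled by the sum of all listed FPKM, which was 595632 in Tdrd6+/- and 494391 in Tdrd6-/-, every log2 ratio moved up by 0.27. The median of the members was then 0.29 beside 0.28 for all transcripts, Pnn-201 also passed the threshold, and Rnps1-204, which was close to 0, was the member transcript whose ratio changed sign. Under that scaling 81.3% of all transcripts past 1.5-fold were higher, against 51.1% as deposited.

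**Figure D3:**
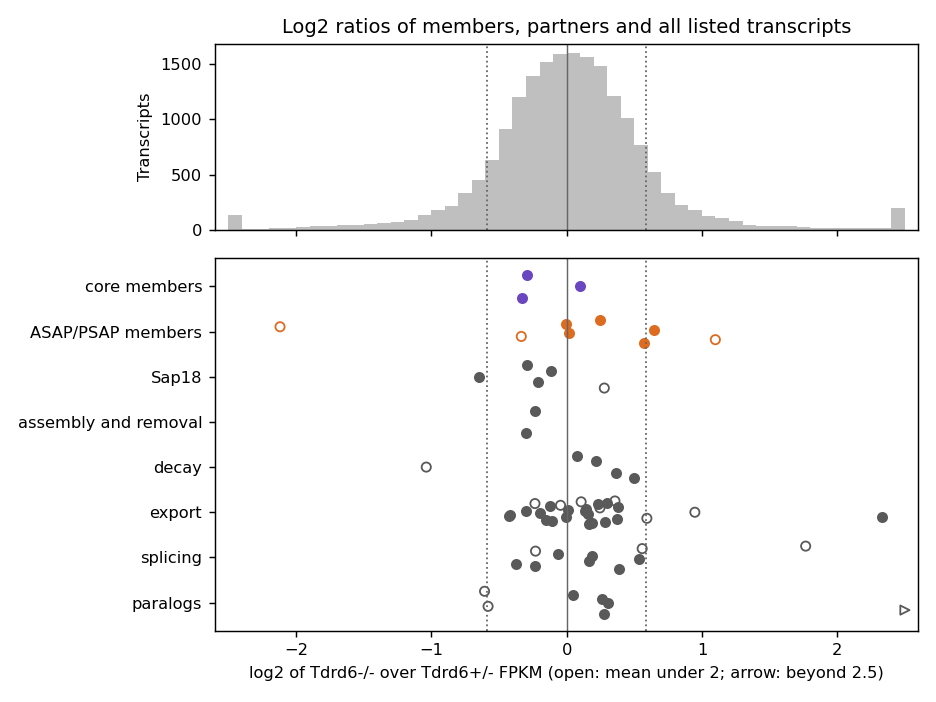
Log2 ratio of Tdrd6-/- over Tdrd6+/- FPKM, as a histogram over the 19034 transcripts with values above 0 (top, number of transcripts in bins of the ratio, values beyond 2.5 in the outer bins) and as a point per transcript for the core members, the ASAP and PSAP members and the partner genes (bottom), with open symbols for a mean FPKM under 2, an arrow for a ratio beyond 2.5 and dotted lines at 1.5-fold. The core members lie within the bulk of the histogram. Of the 8 ASAP and PSAP member transcripts, 3 lie outside the dotted lines, beside 22.7% of all transcripts. Of these 3, 2 have a mean FPKM under 1, a level at which 40.7% of all transcripts lie outside the lines. A difference between the core and the other members was not tested.

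The ratios followed transcript length across the tables, and 6 of the 11 member transcripts lay within the middle 50% of their length range. Over all transcripts the median log2 ratio was -0.31 for those of up to 1000 nt, -0.15 above that and up to 2000 nt, 0.04 up to 3000 nt, 0.19 up to 5000 nt and 0.34 for those over 5000 nt. Magoh-001, at 692 nt the shortest member, was 0.02 below the median of its length range on the log2 scale. Eif4a3-001 (1509 nt) was 0.14 below its own, and Rbm8a-201 (2604 nt) was 0.06 above. The core transcripts thus differed from each other in the order of their lengths, with the 2 shorter ones lower and the longer one higher. Acin1-002 (4383 nt) and Pnn-201 (3469 nt) were above the median of their range by 0.46 and 0.39, at its percentiles 87.8 and 84.7. Rnps1-202 (1798 nt) was above by 0.40, at percentile 82.1. Rnps1-203 (1617 nt) was at percentile 1.12 and Acin1-010 (2369 nt) at percentile 96.8. Whether length has a part in the members' values was not tested.

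**Figure D4:**
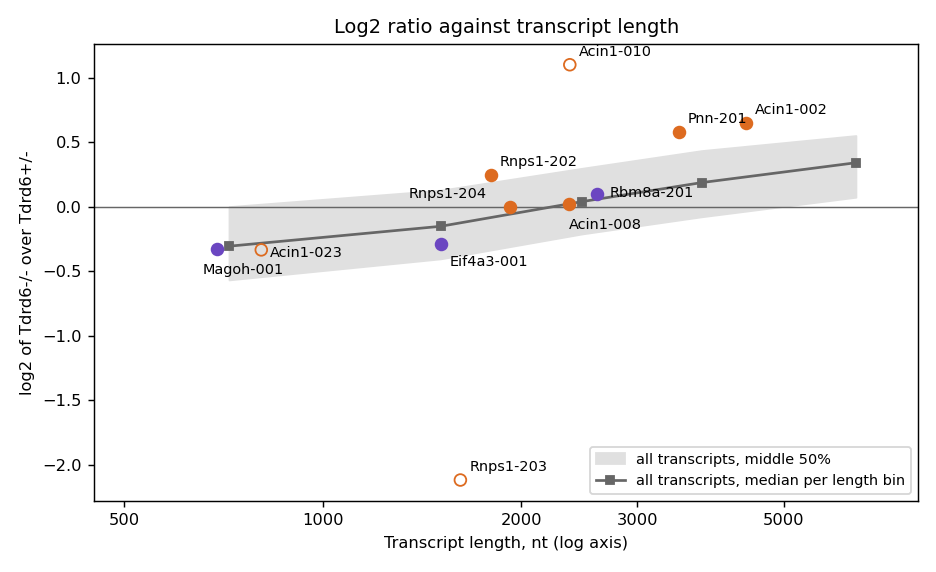
Log2 ratio of Tdrd6-/- over Tdrd6+/- FPKM of the 11 member transcripts against transcript length in nt on a log axis, with core members in purple, peripheral members in orange and open symbols for a mean FPKM under 2. The grey line joins the medians of all transcripts in 5 length ranges, from -0.31 for the shortest to 0.34 for the longest, and the band holds their middle 50%; 6 members lie in the band, Acin1-002, Acin1-010, Pnn-201 and Rnps1-202 lie above it and Rnps1-203 lies below it.

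The tables group transcripts by 3' UTR length, since long 3' UTRs can bring UPF1-dependent decay. Magoh-001 and Eif4a3-001 are in the table of short 3' UTRs (148 and 180 nt in GENCODE M1) and Rbm8a-201, with 2045 nt, is in that of long 3' UTRs. The 8 Rnps1, Acin1 and Pnn transcripts are in the medium table, with 3' UTRs of 382 to 1204 nt. Over each whole table, the median log2 ratio was -0.13 where 3' UTRs are short, 0.03 where they are medium and 0.20 where they are long. Rbm8a-201, as the only member with a long 3' UTR, stood at percentile 38.8 of its table. Acin1-002 and Pnn-201 stood at percentiles 90.2 and 87.7 of the medium table, in which 12% of transcripts were higher and 9.02% lower past 1.5-fold (21.0% in either direction). In all 11 transcripts the annotated stop codon lies in the last exon, by 17 bases past the last junction in Eif4a3-001 and by up to 1388 bases in Pnn-201. As annotated, none of the listed forms therefore carries a junction downstream of its stop codon. Such a junction is the feature by which the complex marks an mRNA for NMD. For Acin1-023 this holds only for the 2 exons annotated. That form has an incomplete start and ends before the last exon of the other 3 listed forms begins. Whether a longer form of it would carry such a junction is not known here.

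The genes that work with the complex were given by a list of 30 names, of which 28 had values, with 56 transcripts. Past 1.5-fold, 5 transcripts were higher in Tdrd6-/-, 3 were lower and 48 were neither, a share of 14.3% beside 22.7% for all transcripts. Their median log2 ratio was 0.14, with 33 of 56 above 0. Over all transcripts the median was 0.01, with about as many above 0 as below. Whether the partners differ from all transcripts was not tested. Of the 8 transcripts past 1.5-fold, 6 had a mean FPKM under 2. At a mean FPKM of at least 1, 13.2% of 53 partner transcripts were past 1.5-fold, beside 17.7% of all transcripts of that level.

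Sap18, the partner that ASAP and PSAP share, had 5 listed transcripts with a median log2 ratio of -0.21. Its most abundant form, Sap18-005, had 103 and 95.2 FPKM (-0.12). Sap18-003 had 56.8 FPKM in Tdrd6+/- and 36.2 FPKM in Tdrd6-/- (1.57-fold lower, -0.65). The sign of that ratio is opposite to those of Acin1-002 and Pnn-201, which encode proteins of the same complexes. Sap18-001, with 1.23 and 1.49 FPKM (0.28), had the same sign as Acin1-002 and Pnn-201. Sap18-003 has 662 nt, in the length range with a median of -0.31, and Sap18-001 has 3467 nt, in that with a median of 0.19. Wibg, also called Pym1, encodes a protein that takes the complex off mRNA at the ribosome, and its main form Wibg-201 had 34.7 and 28.2 FPKM (-0.30), near the ratios of Eif4a3-001 and Magoh-001. Cwc22, which brings EIF4A3 to the spliceosome, and Sap18b were not analysed here.

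Of the decay factors that read the complex, Upf3a-201 had 114 and 120 FPKM (0.08), far above its paralog on the X chromosome, Upf3b, whose main form Upf3b-001 had 2.14 and 2.49 FPKM (0.22). The other form, Upf3b-201, had 1.39 and 0.679 FPKM, 2.05-fold lower in Tdrd6-/- (-1.04). Upf2-001, whose product bridges UPF3 and UPF1, had 4.92 and 6.34 FPKM (0.37). Smg6-001, which encodes the endonuclease that binds the complex, had 17 and 24 FPKM (0.50). The decay group had 1 of 5 transcripts past 1.5-fold, Upf3b-201, beside 22.7% of all transcripts and 27.6% of those with a mean FPKM from 1 to 2, as that of Upf3b-201 is.

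The export factors held 27 transcripts of 15 genes, of which 3 were higher past 1.5-fold and none was lower, with a median log2 ratio of 0.14. The share was 11.6% higher past 1.5-fold over all transcripts, so that 3 of 27 is near the background. The most abundant were Nxt1-002 (248 and 186 FPKM, -0.42) and Thoc7-201 (174 and 152 FPKM, -0.20), a cofactor of the export receptor and a subunit of the THO complex. The receptor itself, Nxf1-201, had 62.2 and 69.4 FPKM (0.16), and the helicase gene Ddx39b had 15.6 and 19.2 FPKM for Ddx39b-001 (0.30). The 3 forms past the threshold were of low level in Tdrd6+/-. The Chtop form listed as 2500003M10Rik-004 had 0.837 and 4.22 FPKM (2.33), 2500003M10Rik-007 had 0.554 and 0.836 FPKM (0.59) and Thoc6-003 had 0.69 and 1.33 FPKM (0.95). The other 4 Chtop forms were more abundant and lay between -0.16 (2500003M10Rik-001, 20.5 and 18.4 FPKM) and 0.37 (2500003M10Rik-006, 10.9 and 14.1 FPKM). Thoc6-001 had 8.49 and 6.89 FPKM (-0.30).

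Among the 4 splicing genes, 1 of 10 transcripts was past 1.5-fold, Srrm1-201 with 0.487 and 1.66 FPKM (1.77), beside 22.7% of all transcripts and 27.6% of those with a mean FPKM from 1 to 2. Srrm1 encodes a splicing coactivator found with the complex, and its other forms, Srrm1-003 and Srrm1-001, had log2 ratios of 0.56 and -0.23. The paralogs of core members held 7 transcripts of 3 genes. Magohb-001, whose product is almost identical to MAGOH, had 1.32 and 0.868 FPKM (1.52-fold lower, -0.61), and the level of Magoh was 28.3 times that of Magohb in Tdrd6+/- and 34.4 times in Tdrd6-/-. The translation initiation factors Eif4a1 and Eif4a2, relatives of Eif4a3, had 25 and 30 FPKM for Eif4a1-001 (0.26) and 17.2 and 21.3 FPKM for Eif4a2-001 (0.31), ratios of opposite sign to that of Eif4a3-001. Eif4a2-201, a minor form, had 2.19 and 1.47 FPKM (-0.58), a ratio of the same sign as that of Eif4a3-001. Eif4a2-014 had 0.0691 and 2.42 FPKM, the largest log2 ratio of the list at 5.13, at a mean level of 1.24 FPKM. Magohb was the gene of the list past 1.5-fold once the listed transcripts of each gene were summed, and no member gene was. Over all genes summed in this way the share past 1.5-fold was 14.1%.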

How the data were processed

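RNA of 8 samples was sequenced, 4 of each genotype, from cells enriched for round spermatids. Per the labels mRNA was selected by poly-dT and made into strand-specific libraries, whereas the methods describe removal of ribosomal RNA. Reads were aligned to mm9 with TopHat2 2.0.9, which runs Bowtie2, and transcripts were quantified with Cufflinks 2.1.1 and Cuffdiff on the Ensembl annotation, per the submitters' notes and the methods. The FPKM values were deposited by the authors as 1 value a genotype for each transcript, in 3 tables that divide transcripts at 3' UTR lengths of 350 and 1500 nt. The tables also hold the authors' fold changes, test statistics, p-values and q-values, which were not used. How the libraries were scaled to each other is not given in the sources used here. Depth per sample and the precision of a single FPKM are unknown from these tables.

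The 19882 entries were reduced to 19077 transcripts by identifier. Log2 ratios of Tdrd6-/- over Tdrd6+/- were taken without a pseudocount over the 19034 transcripts above 0 in both genotypes, with Python 3.11.15, numpy 2.4.6, pandas 2.3.3 and matplotlib 3.10.9, by scripts tested on simulated data. With 1 value a genotype there is no SD, n or test. A percentile is the share of transcripts with a lower value. Exons, lengths and sequences are from GENCODE M1 on mm9 by transcript identifier (18894 transcripts), and names of copies from RefSeq. Windows of 76 bases along each member transcript were searched for exact copies in mm9.

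Named were all listed transcripts of the 7 genes, Tdrd6, the partners past 1.5-fold and further partners by role, and the 3 genes nearest to the member with the largest absolute log2 ratio. Some further forms of these partner genes (Srrm1, Chtop, Thoc6, Eif4a2 and Sap18) and single marker genes were named after their values were seen. Members and lists were chosen with earlier results of these data known. Alternatives were other thresholds, pseudocounts, a minimum FPKM, scaling and summing over genes.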

Additional observations from a re-analysis of the deposited data

How the results depend on the processing

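The member counts rest on 1 pooled value a genotype, on a threshold of 1.5-fold and on low values. No paired analysis was possible because the tables hold 1 combined value a genotype, and for the same reason no sample could be left out. Of the 11 member transcripts, 3 were past 1.5-fold, 6 past a lower threshold of 0.32 on the log2 scale and 1 of 9 at a mean FPKM of at least 1. Scaled by the sum of FPKM, 4 were past 1.5-fold. With 1 transcript per gene 1 of 6 was, and with summed transcripts 0 of 6. The members' median log2 ratio of 0.02 was 0.0051 when centred on the median of all transcripts, 0.29 under the scaling, 0.17 with 1 transcript per gene and 0.0511 for summed genes. Of the 56 partner transcripts, 8 were past 1.5-fold, 20 past the lower threshold, 4 at 2-fold, 4 with a pseudocount of 1 and 14 under the scaling, and 1 of 28 with 1 transcript per gene or with summed genes. The partners' median of 0.14 was 0.12 with a pseudocount of 1, 0.12 when centred, 0.41 under the scaling and 0.15 with 1 transcript per gene. For all transcripts, the share past 1.5-fold of 22.7% became 48.9% at the lower threshold, 8.83% at 2-fold, 10.2% with a pseudocount of 1 and 31.6% under the scaling. It was 17.7% at a mean FPKM of at least 1, 15.9% with 1 transcript per gene and 14.1% with summed genes. For the transcript Tdrd6-202 the log2 ratio of -4.98 became -4.87 with a pseudocount of 0.1, -4.18 with a pseudocount of 1, -4.99 when centred and -4.71 under the scaling. With a pseudocount of 1 the log2 ratio of Acin1-010 was 0.49 and no longer past the threshold, and that of Rnps1-203 went from -2.12 to -0.67 (-1.71 with a pseudocount of 0.1). Under the scaling that of Pnn-201 was 0.84. The cause of these changes is the construction of each alternative.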
